A study of Mus musculus with 8 samples.

Results

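The mRNAs of 10 proteins that read or remove N6-methyladenosine (m6A) were followed in mouse embryonic fibroblasts: the YTH-domain readers Ythdf1, Ythdf2, Ythdf3, Ythdc1 and Ythdc2, the IGF2BP readers Igf2bp1, Igf2bp2 and Igf2bp3, and the demethylases Fto and Alkbh5. The genes were chosen by name, and each symbol was matched to an Ensembl identifier of the count table, which gave 10 genes of 39017 in all. All 10 passed the filter on low counts, as did 18952 genes of the table. Every level below is an RNA level, not a protein level.

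The cells came from E13.5 embryos. The 4 groups of 2 biological replicates were total RNA of unstressed control cells, stress granule-enriched RNA of control cells given arsenite, total RNA of unstressed Mettl3 knockout cells, and granule-enriched RNA of arsenite-treated Mettl3 knockout cells. Knockout was induced through a Cre recombinase activated by 500 nM 4-hydroxytamoxifen for 48 h, and loss of METTL3 and of m6A was examined by the submitters after 7 days. The labels name neither the promoter of the Cre nor whether control cells received the drug, and the replicates are called biological without saying whether they came from separate embryos or cultures, so the p-values measure the spread between these libraries. Arsenite was applied at 500 µM for 30 min, and granules were enriched by centrifugation. Because every granule library was stressed and no total library was, the effects of fraction and of arsenite cannot be told apart.

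METTL3 is the catalytic subunit of the nuclear complex that writes m6A on mRNA, most often within the sequence GGACU and near stop codons. The cytoplasmic YTHDF proteins bind the mark through their YTH domain, and YTHDF2 in particular brings the CCR4-NOT deadenylase to bound mRNAs, which shortens their life. YTHDC1 acts in the nucleus on splicing and export, and YTHDC2 is a helicase known for its part in meiosis. IGF2BP proteins, which bind with KH domains and are abundant in embryonic tissue, stabilise their target mRNAs. FTO and ALKBH5 are oxygenases that take the methyl group off again. Stress granules are cytoplasmic bodies of stalled mRNAs and RNA-binding proteins, YTHDF proteins among them.

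The paralogs of each family are alike in sequence, so it was asked whether their reads could be told apart. The most similar 90 coding bases of the YTHDF mRNAs are shown to let their likeness be seen. They lie in coding exons at chr2:180911123-180911212 (minus strand), chr4:132204568-132204657 (minus strand) and chr3:16204899-16204988 (plus strand) of GRCm38, and capitals mark the 23 positions at which the 3 sequences are not all alike.
Ythdf1: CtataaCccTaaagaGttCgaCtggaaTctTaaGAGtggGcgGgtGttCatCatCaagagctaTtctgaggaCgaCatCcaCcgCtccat
Ythdf2: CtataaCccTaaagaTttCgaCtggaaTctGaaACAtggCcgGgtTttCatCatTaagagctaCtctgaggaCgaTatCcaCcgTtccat
Ythdf3: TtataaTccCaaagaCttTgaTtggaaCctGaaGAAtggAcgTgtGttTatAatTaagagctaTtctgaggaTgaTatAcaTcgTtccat

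The same window of the IGF2BP mRNAs spans an exon junction in each gene, within chr11:95966734-95967589, chr16:22063665-22065133 and chr6:49088513-49091016, all on the minus strand. Here 25 of 90 positions differed.
Igf2bp1: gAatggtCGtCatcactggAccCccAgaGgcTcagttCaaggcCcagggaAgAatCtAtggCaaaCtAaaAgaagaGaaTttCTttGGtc
Igf2bp2: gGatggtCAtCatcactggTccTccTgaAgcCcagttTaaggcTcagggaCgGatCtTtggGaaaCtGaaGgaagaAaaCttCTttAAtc
Igf2bp3: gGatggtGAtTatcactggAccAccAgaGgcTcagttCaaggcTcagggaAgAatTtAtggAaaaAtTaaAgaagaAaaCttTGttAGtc

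Between Ythdf1 and Ythdf2 the encoded proteins shared 69.3% of aligned residues, between Ythdf1 and Ythdf3 72.1%, and between Ythdf2 and Ythdf3 70.6%. Among the IGF2BP proteins identity ran from 68.0% (IGF2BP2 with IGF2BP3) to 75% (IGF2BP1 with IGF2BP3). YTHDC1 and YTHDC2 shared 31.9% of 464 aligned residues, and FTO and ALKBH5 27.4% of 237. In the coding sequences the longest run of identical aligned bases was 22, between Ythdf1 and Ythdf2. Over the whole longest coding transcripts, untranslated parts included, no stretch of 50 bases occurred in 2 members of a family. The read length is not given in the sources used here, and untranslated parts were not aligned.

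The motif GGACT, written with U in the RNA, was searched on the mRNA strand of the longest coding transcript of each gene. It occurred 10 times in Igf2bp1 and in Alkbh5, 5 times in Ythdf2 and in Igf2bp2, 3 times in Ythdc2, 2 times each in Ythdc1, Igf2bp3 and Fto, and 1 time each in Ythdf1 and Ythdf3. Per kilobase this was 0.20 in Ythdf3 and 0.31 in Ythdf1 at the low end and 1.75 in Alkbh5 at the high end, beside a median of 1.01 over 21866 protein-coding genes. The coding part held a match in Ythdf1, Ythdf2, Ythdf3, Ythdc2, Igf2bp2, Igf2bp3 and Alkbh5 and no match in Ythdc1, Igf2bp1 or Fto, while 71.2% of all coding sequences held at least 1. For 6 of these genes the coding match nearest to the stop codon is printed with 10 bases on each side and the motif in capitals. It is shown because m6A is the mark that METTL3 writes. In Ythdf1 and Ythdf2 the match lay 305 and 302 bases before the stop codon. It lay farther off in Igf2bp2 (664 bases), Alkbh5 (683), Ythdf3 (1174) and Igf2bp3 (1607). No m6A map was used here, and a match is not a methylated site.
Ythdf1, chr2:180910958-180910982, minus strand: agtcccctgtGGACTacggcaccag
Ythdf2, chr4:132204403-132204427, minus strand: aatctgctgtGGACTacaacacatg
Ythdf3, chr3:16204257-16204281, plus strand: aggcatgactGGACTgaaaattggt
Igf2bp2, chr16:22076074-22076098, minus strand: cttttcgactGGACTgtctgtgctt
Igf2bp3, chr6:49214332-49214356, minus strand: acgcgttcgtGGACTgcccggacga
Alkbh5, chr11:60538910-60538934, plus strand: acgagatcccGGACTgggtgcatca

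Total counts per library ran from 67257220 to 123508539. Mettl3 itself, the check of the labels, stood at 25.4 and 24.9 CPM (counts divided by a library size scaled by the trimmed mean of M-values, in the usual unit) in control total, 15.7 and 15.4 in control granule, 6.0 and 7.35 in knockout total and 5.56 and 6.38 in knockout granule libraries. All 4 knockout libraries were thus lower than all 4 control libraries, with residual reads in each. Its exons overlap Tox4 on the other strand over 18.38% of their bases. The knockout total replicates differed from each other by a median of 0.813 on the log2 scale over 10261 genes, against 0.101 to 0.312 in the other groups, and that difference ran with the GC content of the transcript (Spearman rho -0.734 across genes, which are not independent replicates). The smaller difference between the control total replicates ran with GC content in the opposite direction (rho 0.764). For the granule groups rho was small, at -0.155 in control and 0.0413 in knockout. Mitochondrial transcripts took 7.602% of counts in knockout total replicate 1 and 6.156% and 8.808% in the knockout granule libraries, against 0.59% to 0.881% in the other 5. All 10 fibroblast markers were detected, and their summed level was lowest in knockout total (3480 to 3850 CPM) and highest in knockout granule libraries (6950 to 7580 CPM). The 5 epithelial markers summed to 412 to 676 CPM in control total, 967 to 1050 in control granule, 84.7 to 166 in knockout total and 574 to 710 in knockout granule libraries. In the same order the 5 neural markers summed to 305 to 328, 607 to 682, 202 to 272 and 368 to 388 CPM. Of these neural markers 2 averaged under 1 CPM, so the sum came almost wholly from the others. Markers of blood (38.8 to 73.2 CPM over all libraries), endothelium (6.24 to 20.1), skeletal muscle (1.70 to 5.88) and germ line (0.114 to 0.391, Dazl at 0) were lower. The part of these differences in the results below was not tested, and with bulk RNA fewer cells of a type and less RNA per cell cannot be told apart.

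Compared with each other in control total RNA, per kilobase of merged exons, Ythdf1 had the highest level of the 10 mRNAs at 28.8 ± 2.67 CPM per kilobase (SD, n = 2), followed by Igf2bp2 (21.4 ± 2.42), Ythdf2 (17.6 ± 2.53), Alkbh5 (17.5 ± 1.80), Fto (11.3 ± 1.65) and Igf2bp1 (8.94 ± 0.395). Ythdf3 (5.85 ± 2.47), Ythdc1 (3.44 ± 0.696), Igf2bp3 (3.37 ± 0.382) and Ythdc2 (0.616 ± 0.344) stood lowest. Replicates overlapped between the neighbours Ythdf2 and Alkbh5 and between Ythdc1 and Igf2bp3, and between no other neighbours in this order. The order depends on the length used, because the annotated exons of Ythdc1 (13651 bases merged) and Fto (13031 bases) far exceed their longest coding transcripts (3269 and 4707 bases), and the gene counts do not separate isoforms. Per kilobase of that transcript Igf2bp2 stood first in control total at 40.6, followed by Fto at 31.3 and then Ythdf1, and Ythdc1 stood at 14.4.

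In control cells most readers stood higher in the granule fraction than in total RNA, and Igf2bp3 was the member that passed the test. Igf2bp3 was called higher (an adjusted p under 0.05 in edgeR's quasi-likelihood test over all 18952 genes), 1 of 10 members, where 10.1% of all genes were called in either direction and 5.89% as higher. In 8 members both granule libraries lay above both total libraries, a pattern shown by 35.2% of all genes, and in none did they lie below, against 37.3% of all genes. The members had a median log2 ratio of 0.68, against -0.06 for all genes tested, and of 0.31 with the GC trend of each library removed (-0.09). In knockout cells 0 of 10 members were called by edgeR (17.6% of all genes called), with 6 at an unadjusted p under 0.05 (34.3% of all genes), 3 called by DESeq2 (26.9%) and 0 by voom with library quality weights (5.69%). The members split evenly, 3 with both granule libraries above total (31.5% of all genes) and 3 below (26.5%), around a median of -0.24 (0.04 for all genes). That median was 0.17 (0.09 for all genes) without knockout total replicate 1 and -0.45 (0.04) without replicate 2. With the GC trend removed it was 0.02.

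**Figure D1:**
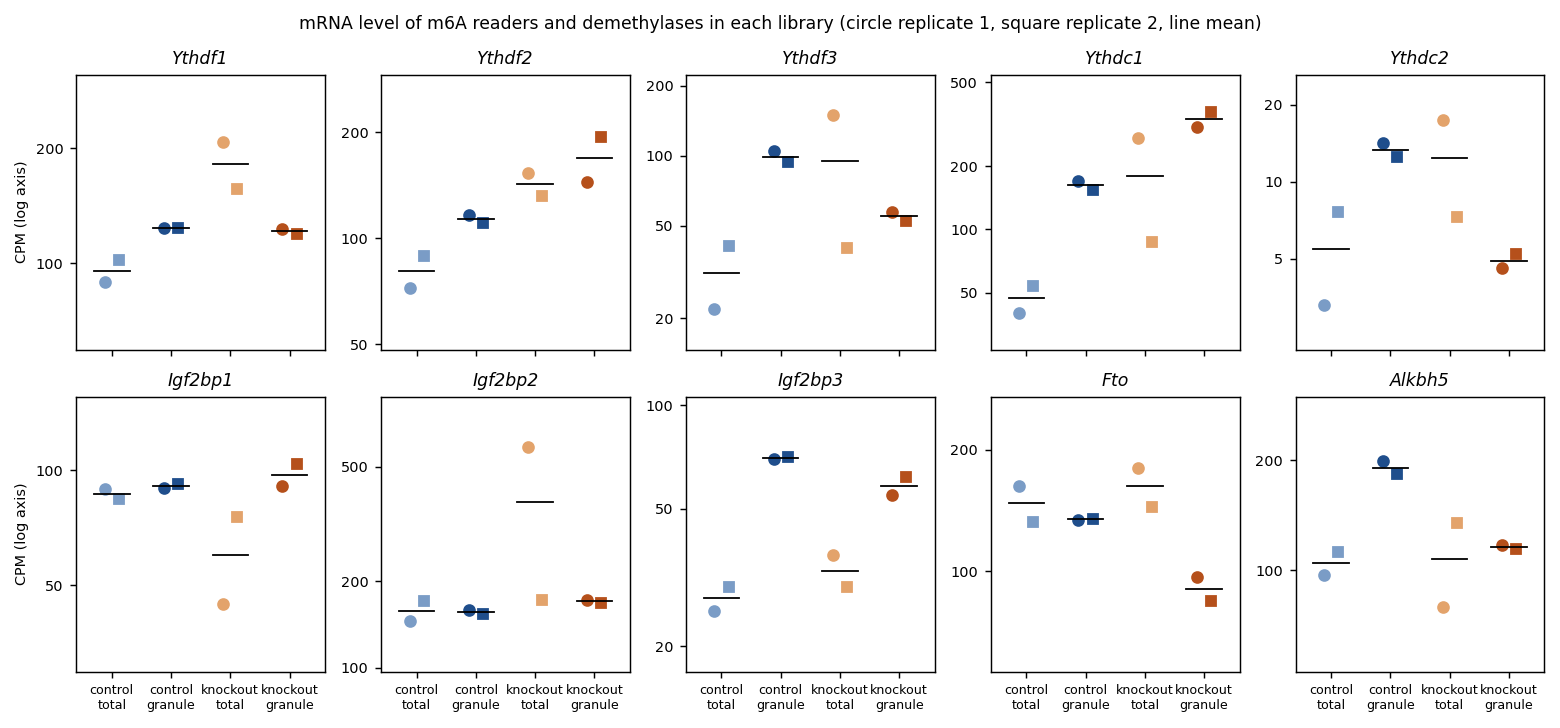
Level of each mRNA in every library, in CPM on a log axis that differs between panels. Circles are replicate 1, squares replicate 2 and lines the mean of 2. Control granule replicates sit close together, whereas knockout total replicates lie far apart for Ythdf3 (149 and 40.1 CPM), Ythdc1 (271 and 86.8) and Igf2bp2 (584 and 172).

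Knockout against control in total RNA gave 0 called members of 10 by edgeR, where 0.412% of all genes were called. At an unadjusted p under 0.05 there were 6 members (24.8% of all genes). DESeq2 called Ythdf1, Ythdf2, Ythdf3 and Ythdc1 as higher (14.9% of the 16380 genes to which it gave an adjusted p). Voom called 0 members (0.206% of all genes). The median log2 difference of the 10 members was 0.88 (all genes 0.02), and 0.33 with the GC trend removed. It was 0.36 without knockout total replicate 1 and 1.13 without replicate 2. In total RNA 4 members were higher in both knockout libraries than in both control ones (24.4% of all genes). There 1 member, Igf2bp1, was lower in both knockout libraries (24.7%). In the granule fraction edgeR called 0 of 10 members (9.45% of all genes), with 2 at an unadjusted p under 0.05 (27.9% of all genes), 1 called by DESeq2 (17.8%) and 6 by voom (55.2%). Here 3 members were higher in both knockout libraries (40.4% of all genes) and 6 lower (36.6%), with a median of -0.15 (all genes 0.08), or 0.04 with the GC trend removed (all genes 0.12). The test of whether the granule to total ratio differed between genotypes called 0 members by edgeR (0.517% of all genes). There 3 members had an unadjusted p under 0.05 (25.8% of all genes). DESeq2 called 2 members (16.3% of the 16747 genes to which it gave an adjusted p) and voom 1 (3.92% of all genes).

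The model shares its estimate of spread among all 4 groups, so the scattered knockout total libraries widen the errors of comparisons they do not enter. Fitted on the 4 granule libraries alone, the genotype comparison called 7 of 10 members, where 57.3% of all genes were called. Without knockout total replicate 1 it called 6 (39.0% of all genes), and without replicate 2 the count was again 6 (38.9%), in each case Ythdf2, Ythdf3, Ythdc1, Ythdc2, Fto and Alkbh5. The 4 control libraries alone called 5 members between granule and total (42.4% of all genes), namely Ythdf3, Ythdc1, Ythdc2, Igf2bp3 and Alkbh5. The members' counts are to be read against these shares, and the values per gene follow. The library quality weights of voom did not single out 1 knockout total replicate, at 0.152 for replicate 1 and 0.163 for replicate 2.

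**Figure D2:**
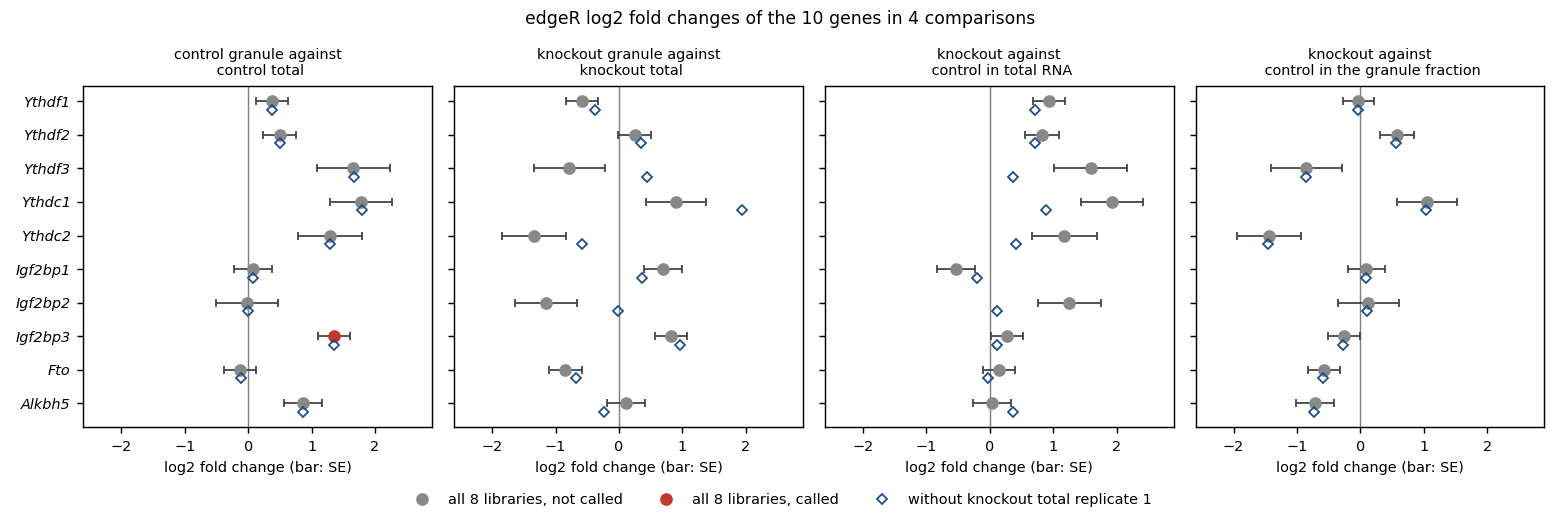
Log2 fold changes of the 10 mRNAs in 4 comparisons. Circles with bars are the edgeR estimate and its SE from all 8 libraries (red where called), and open diamonds the estimate without knockout total replicate 1. The diamonds lie on the circles in both comparisons that use no knockout total library. In those that do, several move towards 0 or across it. Others move away from 0, such as Ythdc1 in the knockout ratio (0.90 to 1.94) and Alkbh5 in total RNA (0.03 to 0.37). Estimates without knockout total replicate 2 are not drawn.

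Among the YTHDF readers, Ythdf1 (ENSMUSG00000038848, chromosome 2, 180904377 to 180920949) has been linked to translation of methylated mRNAs. It stood at 89.1 and 102 CPM in control total, 124 and 124 in control granule, 208 and 157 in knockout total and 123 and 119 in knockout granule libraries. The granule libraries of the genotypes were thus close (log2 difference -0.03, SE 0.25, edgeR adjusted p = 0.951), whereas both knockout total libraries lay above both control total ones (0.93, SE 0.25, adjusted p = 0.136). The latter difference was 0.72 without knockout total replicate 1 and 1.23 without replicate 2. With the GC trend of each library removed it was 0.73 (edgeR adjusted p = 0.0535).

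Ythdf2 (ENSMUSG00000040025, chromosome 4, 132184912 to 132212303), the reader that recruits the deadenylase, was lowest in control total at 72.4 and 88.8 CPM. It reached 117 and 110 CPM in control granule, 154 and 132 in knockout total and 144 and 195 in knockout granule libraries. Every knockout library therefore stood above every control library, with a log2 difference of 0.83 in total RNA (SE 0.27, edgeR adjusted p = 0.149) and of 0.58 in granules (SE 0.27, adjusted p = 0.199). In the granule libraries alone the difference was 0.59 (adjusted p = 0.0033), and with the GC trend removed it was 0.79 in granules (adjusted p = 0.032) and 0.34 in total RNA (adjusted p = 0.333).

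Ythdf3 (ENSMUSG00000047213, chromosome 3, 16183212 to 16217037), the paralog of lowest GC content at 38.4%, showed the opposite order in granules. It measured 104 and 93.5 CPM in control granule against 57.3 and 52.4 CPM in knockout granule libraries, a log2 difference of -0.85 (SE 0.56, edgeR adjusted p = 0.359, and -0.84 with adjusted p = 9.67e-06 in the granule libraries alone). In total RNA it stood at 22.0 and 40.7 CPM in control and at 149 and 40.1 in knockout libraries, so the genotypes overlapped and knockout replicate 1 stood apart. Its granule to total log2 ratio was 1.66 in control cells (SE 0.57, adjusted p = 0.0996), and 0.33 (adjusted p = 0.303) with the GC trend removed. In knockout cells that ratio was -0.79 (SE 0.56, edgeR adjusted p = 0.365). It turned to 0.44 without knockout total replicate 1 and ranged from -1.57 to 0.44 over all alternatives.

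The nuclear reader Ythdc1 (ENSMUSG00000035851, chromosome 5, 86804221 to 86836659) had some of the largest differences among the members. Its level was 40.2 and 53.7 CPM in control total, 170 and 153 in control granule, 271 and 86.8 in knockout total and 305 and 363 in knockout granule libraries. Granule libraries thus stood above total libraries in both genotypes, by a log2 ratio of 1.78 in control (SE 0.49, edgeR adjusted p = 0.0566) and 0.90 in knockout cells (SE 0.48, adjusted p = 0.226). Without knockout total replicate 1 these ratios were 1.79 and 1.94, and the genotype difference between them moved from -0.88 to 0.15. Over all alternatives the knockout ratio ranged from 0.17 to 1.94 and the genotype difference from -1.65 to 0.15. Knockout exceeded control by 1.05 in granules (SE 0.48, adjusted p = 0.199, and 1.06 with adjusted p = 5.9e-06 in the granule libraries alone). In total RNA the excess was 1.93 (SE 0.49, edgeR adjusted p = 0.128), 0.89 without knockout total replicate 1 and 2.64 without replicate 2. A gene on the same strand, Gm43055, covers 4.62% of its exonic bases.

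Ythdc2 (ENSMUSG00000034653, chromosome 18, 44827746 to 44889724), the helicase reader, was the scarcest member, with 225 to 1946 counts per library. In control cells it stood at 3.31 and 7.63 CPM in total and 14.2 and 12.5 in granule libraries, and in knockout cells at 17.5 and 7.30 in total and 4.59 and 5.21 in granule libraries. Granule libraries were thus above total in control and below total in knockout cells, without overlap in either. The log2 ratio was 1.29 in control (SE 0.51, edgeR adjusted p = 0.135) and -1.34 in knockout cells (SE 0.51, adjusted p = 0.104). The genotype difference in that ratio was -2.63 (SE 0.72, adjusted p = 0.104), the largest among the members. Without knockout total replicate 1 the knockout ratio was -0.58, and it ranged from -1.96 to -0.58 over all alternatives. The genotype difference was -1.87 without knockout total replicate 1 and -1.48 (edgeR adjusted p = 0.0428) with the GC trend removed. Over all alternatives it ranged from -3.5 to -1.48. Between the granule fractions, the knockout against control difference was -1.45 (SE 0.51, adjusted p = 0.113), and -1.44 (adjusted p = 1.44e-06) with the granule libraries alone.

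Of the IGF2BP readers, Igf2bp1 (ENSMUSG00000013415, chromosome 11, 95957163 to 96005940) stood at similar levels in 3 of the groups. It was at 89.3 and 83.9 CPM in control total, 90.01 and 92.3 in control granule and 90.8 and 104 in knockout granule libraries. Knockout total libraries were lower, at 44.6 and 75.3 CPM (log2 difference -0.53, SE 0.30, edgeR adjusted p = 0.293). That difference was -0.20 without knockout total replicate 1 and -0.85 without replicate 2.

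Igf2bp2 (ENSMUSG00000033581, chromosome 16, 22059009 to 22163299) was as steady outside a single library. Its level was 146 and 171 CPM in control total, 158 and 154 in control granule and 173 and 168 in knockout granule libraries, and 584 and 172 in knockout total. The log2 difference of knockout against control total RNA was 1.26 (SE 0.49, edgeR adjusted p = 0.178). It was 0.12 without knockout total replicate 1 and 1.99 without replicate 2. Its GC content of 51.3% was the highest among the members, and removal of the GC trend left the difference at 1.34 (adjusted p = 0.143).

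Igf2bp3 (ENSMUSG00000029814, chromosome 6, 49085223 to 49214957), a reader best known from fetal tissue and tumours, rose from 25.3 and 29.7 CPM in control total to 69.7 and 70.6 CPM in control granule libraries. The log2 ratio was 1.35, a 2.55-fold difference (SE 0.26, edgeR adjusted p = 0.0217). The ratio was 0.89 (adjusted p = 0.0121) with the GC trend removed. Leaving out any of the 4 control libraries kept it at 1.25 to 1.52 but ended the call (adjusted p = 0.101 to 0.179), and so did leaving out knockout granule replicate 1 (adjusted p = 0.0713) or replicate 2 (adjusted p = 0.0698). In knockout cells the values were 36.7 and 29.6 CPM in total and 54.9 and 61.9 in granule libraries, a ratio of 0.82 (SE 0.25, adjusted p = 0.06). The genotypes were not shown to differ in this ratio (difference -0.53, SE 0.36, adjusted p = 0.362). Malsu1, on the opposite strand, overlaps 18.74% of the exonic bases of Igf2bp3, and whether counting used strand is not given in the sources used here. Malsu1 itself was at 16.9 ± 0.106 CPM in control total and 11.3 ± 1.95 in control granule (SD, n = 2). Its log2 ratio was -0.58 (SE 0.29, edgeR adjusted p = 0.217). The part of Malsu1 reads in the counts of Igf2bp3 was not tested.

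The demethylase Fto (ENSMUSG00000055932, chromosome 8, 91313525 to 91668439) had overlapping levels in both fractions of control cells. It stood at 163 and 132 CPM in control total and 134 and 135 in control granule libraries (log2 ratio -0.13, SE 0.25, edgeR adjusted p = 0.761). In knockout cells both granule libraries, at 96.5 and 84.4 CPM, lay below both total libraries, at 181 and 144 (ratio -0.85, SE 0.25, adjusted p = 0.0547). Without knockout total replicate 1 the latter was -0.68, and it ranged from -1.13 to -0.55 over all alternatives. Against control granules the knockout granule level differed by -0.57 (SE 0.25, adjusted p = 0.185, and -0.57 with adjusted p = 0.000327 in the granule libraries alone), or -0.39 (adjusted p = 0.17) with the GC trend removed. Total RNA differed little between genotypes (0.14, SE 0.25, adjusted p = 0.738).

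Alkbh5 (ENSMUSG00000042650, chromosome 11, 60536381 to 60558512), the other demethylase, was highest in control granules. It measured 97.2 and 112 CPM in control total, 199 and 183 in control granule, 79.3 and 135 in knockout total and 117 and 114 in knockout granule libraries. The control ratio of granule to total was 0.86 on the log2 scale (SE 0.30, edgeR adjusted p = 0.1, and 0.86 with adjusted p = 0.00458 in the control libraries alone). Both knockout granule libraries lay below both control ones (difference -0.72, SE 0.30, adjusted p = 0.163, and -0.71 with adjusted p = 4.71e-05 in the granule libraries alone). In total RNA the genotypes overlapped (0.03, SE 0.30, adjusted p = 0.956).

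The difference between the knockout total replicates was set against GC content for the members. Replicate 1 exceeded replicate 2 by 1.89 on the log2 scale for Ythdf3, 1.64 for Ythdc1 and 1.26 for Ythdc2, whose transcripts hold 38.4%, 44.8% and 42.0% GC. It lay below replicate 2, by -0.76 and -0.77, for Igf2bp1 and Alkbh5, at 50.8% and 50% GC. Igf2bp2 departed from this order, with 1.77 at 51.3% GC, where genes of 50% to 52% GC had a median of -0.08 and a 90th percentile of 0.90. Ythdc1 also lay slightly above the 90th percentile of genes of 44% to 46% GC, which was 1.58.

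**Figure D3:**
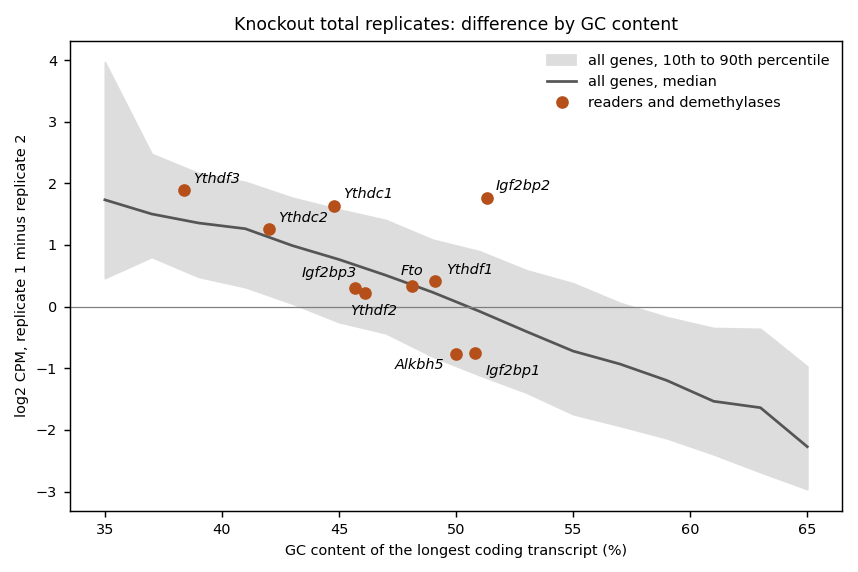
Difference between the 2 knockout total replicates (log2 CPM, replicate 1 minus replicate 2) against GC content of the longest coding transcript. The line and band are the median and the 10th to 90th percentile over genes averaging 5 CPM or more, and points are the 10 members. Igf2bp2, at 1.77, lies well above the band, Ythdc1, at 1.64, slightly above it, and the other members within it.

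Within each family the paralogs' shares of the summed per-kilobase level were taken library by library, as a description. Ythdf1 held the largest share of the YTHDF pool in 7 of 8 libraries, 53.2% to 57.4% in control total and 45.4% to 47.3% in control granule libraries. Ythdf3 held 8.8% and 13.2% in control total and 23.6% and 22.1% in control granule libraries. In knockout granule libraries Ythdf2 held 39.7% and 48.2%, above its 31.0% and 30.6% in control granules, and Ythdf3 held 13.47% and 11.1%. Knockout granule replicate 2 was the library in which Ythdf2 exceeded Ythdf1 (48.2% against 40.7%).

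In the IGF2BP pool Igf2bp2 held the most in every library, from 53.3% in control granule replicate 2 to 89.7% in knockout total replicate 1. Igf2bp3 held 9.7% and 10.3% in control total and 21.8% and 22.2% in control granule libraries, and 17.1% and 18.5% in knockout granule libraries. Igf2bp1 held 22.5% to 28.8% in 7 libraries and 5.2% in knockout total replicate 1.

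**Figure D4:**
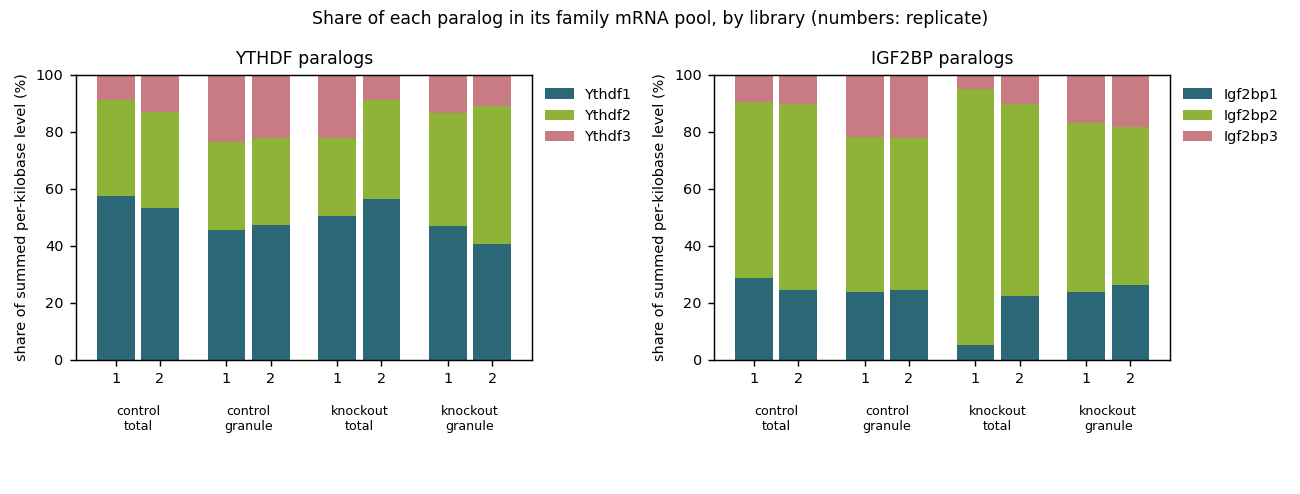
Share of each paralog in the summed per-kilobase mRNA level of its family, in percent, for each of the 8 libraries (numbers under the bars are replicates). Ythdf3 and Igf2bp3 take larger shares in both control granule libraries than in both control total ones, and knockout total replicate 1 stands apart in the IGF2BP pool.

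Other genes of the pathway were counted from 4 lists. In control granules against control total, 5.89% of all genes were called higher and 4.17% lower, with a median of -0.06. Of 9 writer genes 8 were tested, and in control granules 3 were called higher and 0 lower (Virma 1.16, adjusted p = 0.0477, Zc3h13 1.43, adjusted p = 0.0433, and Rbm15 1.63, adjusted p = 0.0267, by edgeR). Their median log2 ratio was 0.73, close to the 0.68 of the readers and demethylases. With the GC trend removed the latter was 0.31, and the medians of the lists were not taken that way. Of 10 other m6A-associated RNA-binding proteins 3 were called higher in control granules and 0 lower, with a median of 0.64 (Hnrnpa2b1 1.45, Fmr1 2.53 and Eif3a 2.06). Among 15 tested partners of the readers in decay, splicing and export, 3 were called higher and 0 lower, with a median of 0.87. These were Cnot6, a deadenylase subunit (2.09), and the splicing factors Srsf3 (1.56) and Srsf10 (1.57).

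Knockout granules against knockout total gave 1 higher call among the writers (Rbm15, 1.51, edgeR adjusted p = 0.0219), 0 calls among the other binding proteins and 0 among the partners, with medians of -0.11, -0.11 and -0.26. Of all genes 9.17% were called higher and 8.47% lower there, with a median of 0.04. Between genotypes 0.412% of all genes were called in total RNA and 9.45% in granules. Between genotypes Mettl3 was the only called writer, with log2 differences of -1.91 in total RNA (SE 0.27, adjusted p = 0.0345) and -1.38 in granules (SE 0.26, adjusted p = 0.0208). Rbmx, an RNA-binding protein whose sites can be exposed by m6A, was called lower in knockout granules (-1.84, SE 0.27, adjusted p = 0.0111), at 4.93 ± 0.708 CPM against 17.6 ± 0.983 in control granules (SD, n = 2).

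RNAs known as IGF2BP clients formed the last list, 11 of 12 tested. In control granules the cyclin Ccnd1 was called higher than in total RNA (1.62, edgeR adjusted p = 0.0133), and 0 clients were called lower. In knockout cells 1 was called lower in granules than in total RNA, Ccnd2 (-1.09, adjusted p = 0.0273). Ccnd1 had 240 ± 0.391 CPM in control granules and 47.9 ± 5.40 in knockout granules (SD, n = 2), a log2 difference of -2.32 (SE 0.26, adjusted p = 0.00541). In total RNA it had 77.9 ± 15.1 and 84.4 ± 4.64 CPM (difference 0.12, SE 0.25, adjusted p = 0.786). The genotype difference in its granule to total ratio was called as well, at -2.44 (SE 0.36, adjusted p = 0.0437). The founding clients of the family, Igf2, H19, Actb and Myc, were called in none of the 5 comparisons. Group means ran from 0.31 to 1.24 CPM for Igf2 and from 3.22 to 4.37 CPM for H19. At such low levels the lack of a call says little.

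Across the 8 libraries the levels of Ythdf2 and Ythdc1 ran together (Pearson r 0.903 of log2 CPM), as did those of Ythdf3 and Ythdc2 (0.886), and over 7 libraries, leaving out each in turn, these stayed at 0.839 to 0.961 and 0.819 to 0.942. Igf2bp1 and Igf2bp2 had an r of -0.94 that rested on knockout total replicate 1, without which it was -0.225. The genes of at least 5 mean CPM whose pattern was most like each member were Gpbp1l1 for Ythdf1 (r 0.9883), Prkce for Ythdf2 (0.9721), Ptbp2 for Ythdf3 (0.9976), Ncor1 for Ythdc1 (0.998) and Crybg3 for Ythdc2 (0.9948). For the others they were Erp29 for Igf2bp1 (0.9877), Cwc15 for Igf2bp2 (0.9945), Pclaf for Igf2bp3 (0.9974), Asf1b for Fto (0.9946) and Zcchc14 for Alkbh5 (0.9812). These are descriptions over 8 libraries that share depth, fraction and the GC differences above, and between 8 genes (for Alkbh5) and 324 genes (for Ythdf3) of 9974 had an r above 0.95.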

How the data were processed

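The authors deposited raw counts for each Ensembl gene, with a separate column for every library. The submitters' processing notes list STAR, DESeq2 and the build GRCm38 (mm10), without roles, while the counting program, strand setting and annotation release are not given in the sources used here. Symbols, coordinates, lengths and GC content came from GENCODE M21 (GRCm38), which matched 37693 of 39017 identifiers, and sequences from its transcripts. Unmatched identifiers held 0.167% to 0.221% of counts.

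Counts were tested in R 4.3.3 with edgeR 4.0.16 (quasi-likelihood F-test, robust, trimmed-mean-of-M-values scaling, expression filter over the groups). A mean per group was fitted to all 8 libraries, with 4 residual degrees of freedom and 5 contrasts. Benjamini-Hochberg adjustment covered all 18952 genes tested. Log2 CPM used a prior count of 2, and SEs were derived from the F statistic. The code was tested on simulated data. Alternatives covered scaling, DESeq2 1.42.0, filters, a replicate block, the groups fitted, a GC offset (lowess, span 0.3) and each library left out. A voom fit (limma 3.58.1) and a crossed block were added after the data were seen. Paralogs were aligned with MAFFT 7.526. All 10 members and Mettl3 were always named, with for each member the gene of at least 5 mean CPM most correlated with it. Other listed genes are named where called, and the founding clients and Malsu1 were named after their values were seen. Members and lists were chosen with earlier results of these data known. Cell type markers were summed per library in CPM. The result of 1 gene of the client list is not reported here.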

Additional observations from a re-analysis of the deposited data

Results flagged for a closer look

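In Ythdf1 both granule libraries lay above both total libraries in control cells and below them in knockout cells. The genotype difference in its log2 granule to total ratio was -0.96 (SE 0.35, edgeR adjusted p = 0.149). It was -0.76 without knockout total replicate 1 and ranged from -1.32 to -0.60 over all alternatives. Ythdc2 showed the same opposite order, with a difference of -2.63 (SE 0.72, edgeR adjusted p = 0.104). Neither passed the threshold in the main edgeR fit to all 8 libraries, while Ythdc2 passed it with the GC trend removed. Groups of 2 are too small for a check on outlying samples.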

How the results depend on the processing

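The counts of called members (1, 0, 0, 0 and 0, in the order control ratio, knockout ratio, total RNA between genotypes, granules between genotypes, genotype difference in the ratio) changed under several settings. The cause was not tested. Shares are of the genes given an adjusted p in each fit, for DESeq2 16380 in total RNA and 16747 in the genotype difference. DESeq2 gave 3, 3, 4, 1 and 2 (21.3%, 26.9%, 14.9%, 17.8% and 16.3% of all genes), no filter beyond 1 count 4, 3, 5, 1 and 2 (11.2% to 17.0% of all genes), and the GC offset 3, 5, 0, 3 and 1 (20.5%, 32.1%, 3.81%, 23.7% and 7.80%). Voom gave 5, 0, 0, 6 and 1 (39.3%, 5.69%, 0.206%, 55.2% and 3.92%), and fitting only the groups compared 5, 0, 0 and 7 (42.4%, 0, 0 and 57.3%), the zeros with 2 and 1 members at an unadjusted p under 0.05. The knockout ratio had 1 call with library size alone (16.3%) or a filter at 5 CPM (17.0%). Leaving out each library in turn gave 0 to 7, 0 to 7, 0 to 8, 0 to 6 and 0 to 8 calls, the highest beside 39.9%, 48.2%, 47.8%, 38.9% and 46.4% of all genes and always without knockout total replicate 2 and, in granules between genotypes, equally without replicate 1. Leaving out any library of the other 3 groups gave 0. Library size alone and upper-quartile factors moved the median of all genes from -0.06 to -0.19 and -0.29 in the control ratio, and from 0.09 to 0.28 and 0.33 in the genotype difference.

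The replicate number does not pair the samples by any label. Replicate differences of control total and knockout total correlated at -0.602 and those of the other pairs of groups at -0.233 to 0.19. A replicate block gave 0 calls in each comparison (3.07%, 10.0%, 0, 3.54% and 0 of all genes; 4, 3, 3, 1 and 3 members at an unadjusted p under 0.05), ended the call of Igf2bp3 (1.35, edgeR adjusted p = 0.0571), and for Mettl3 -1.92 in total RNA (adjusted p = 0.125) and -1.39 in granules (adjusted p = 0.0549), where edgeR no longer called it. A crossed replicate block gave 2, 0, 0, 0 and 0 calls (11.5%, 16.7%, 0.496%, 8.29% and 0.375% of all genes).

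Of 940 fold changes of members under alternatives, 783 kept direction and side of the threshold, 117 gained a call, 7 lost one and 33 turned direction. In the control ratio Igf2bp1 turned to -0.05 with library size alone, -0.16 with upper-quartile factors and -0.05 with the 5 CPM filter. Igf2bp2 turned to 0.04 without filter, 0.12 with the GC offset and 0.00 with the crossed block, and ranged from -0.12 to 0.14 over libraries left out, as Fto did from -0.23 to 0.03. In the knockout ratio the ranges were -1.57 to 0.44 for Ythdf3 and -0.23 to 0.42 for Alkbh5. In total RNA the GC offset turned Igf2bp3 to -0.25, Fto to -0.18 and Alkbh5 to -0.06, and Alkbh5 was -0.05 with library size alone, -0.06 with upper-quartile factors and 0.00 with voom. The ranges over libraries left out were -0.30 to 0.37 for Alkbh5 and -0.03 to 0.40 for Fto. In granules Ythdf1 was 0.06 with library size alone, 0.12 with upper-quartile factors, 0.15 with the 5 CPM filter and 0.12 with the GC offset, and Igf2bp1 ranged from -0.01 to 0.14. The genotype difference turned with the GC offset for Ythdf2 (0.45), Ythdc1 (0.09) and Igf2bp3 (0.21), was 0.00 for Ythdf2 with upper-quartile factors, and ranged from -1.65 to 0.15 for Ythdc1.

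Mettl3 in total RNA was -2.01 with library size alone (adjusted p = 0.0541), -1.91 in the groups compared alone (adjusted p = 0.407), -1.92 with voom (adjusted p = 0.148) and -1.96 to -1.77 over libraries left out, and in granules -1.49 to -1.34. Its call in total RNA was lost without any 1 of the 6 control total, control granule and knockout granule libraries (adjusted p = 0.137 to 0.429), and in granules without any 1 of the 4 granule libraries (adjusted p = 0.174 to 0.195). Fits with a library left out aside, its control ratio was called at -0.70 by DESeq2, -0.65 with the GC offset, -0.69 in the groups compared alone and -0.69 with voom. Over libraries left out that ratio ranged from -0.69 to -0.64, and calls in those fits are not listed. The knockout ratio of Mettl3 turned to 0.07 with the GC offset. The mean share of Igf2bp1 was 22.4% and 15.1% per kilobase of coding transcript, and without length Ythdf1 and Ythdf2 held 40.6% and 39.1% in place of 49.7% and 34.8%.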
